A study of Trichoderma atroviride IMI 206040 with 36 samples.

Results

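The genes described here are 77 transcripts of Trichoderma atroviride whose read counts rose after a pulse of blue light in the Δblr-2 strain and stayed steady in the wild type (WT). They were chosen on these same counts. Counts were divided by the library total and scaled to CPM, counts per 1000000 counts, and 0.5 was added. A transcript was kept when its lowest Δblr-2 light value was at least 2.5 times its highest Δblr-2 dark value, its mean in Δblr-2 light was at least 5, its WT light and dark means differed by less than 0.4 on the log2 scale, and the highest of its 6 WT values was at most 2.5 times the lowest. Of the 11863 transcripts in the table, 175 met the fold in Δblr-2 and 161 also met the mean. Of these, 72 were dropped because their WT means differed too much between light and darkness, and 12 because their WT values were spread too widely. The light response of Δblr-2 and the steadiness of the WT are therefore given as descriptions. For the 77 genes, tests are kept to Δblr-1, Δenv-1 and their comparison with the WT in darkness. The last of these includes WT dark libraries, whose spread the rule limits.

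T. atroviride is a soil fungus, used against plant pathogens, that grows as mycelium in darkness and forms asexual spores (conidia) after exposure to light. In filamentous fungi blue light is sensed mainly by the White Collar type complex, called BLR-1/BLR-2 in Trichoderma. BLR-1 carries the LOV domain that binds the flavin chromophore and BLR-2 is its partner with a zinc finger, and together they act as a transcription factor. ENVOY, the product of env-1, is a small LOV protein that is itself induced by light and tempers the response. Loss of either BLR protein is known to abolish light-induced conidiation. Genes that respond to light in a strain without BLR-2 are thus read against a strain without BLR-1, a strain without ENVOY and the WT.

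RNA sequencing libraries were made from mycelium grown for 36 h on PDA under cellophane. Each of the strains was kept in darkness or collected 30 min after a blue light pulse of 200 μmol per square metre, with 3 replicates of each, which the labels call biological. The 24 libraries used come from the WT and from the Δenv-1, Δblr-1 and Δblr-2 mutants, in darkness and in light. Δenv-1 is a single transformant in which hph, a hygromycin resistance gene, replaced the env-1 reading frame. The study states that it did not use the Δblr-2 libraries in its own work and that the third dark library of Δenv-1 was excluded as too variable. The fits below therefore hold 23 libraries. That replicate enters only the CPM, the counts of libraries that do not overlap and a fit named as such.

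Depth ranged from 1519260 to 22011847 estimated counts per library. Δblr-2 held 2397944, 10835700 and 21505809 in darkness and 6843985, 12062204 and 7034715 in light. The Ids of blr-1 and blr-2 are not given in the sources used here, so the loss of either transcript was not checked. No pair of replicates differed by as little as sampling noise. Conidiation genes, 6 transcripts described as hydrophobins, a conidiospore surface protein or conidial pigment polyketide synthases, stood for the other cell type that a plate could hold. All 6 were taken from the genes that the study lists as responding to light in Δenv-1, on libraries of this series. Their levels in Δenv-1 follow in part from that choice and are a description. Their summed level lay between 25.4 and 31.9 CPM in all 6 Δblr-2 libraries, against 39.3 to 601 CPM in the WT. It was similarly low in the Δblr-1 libraries (19.6 to 58.8 CPM) and in Δenv-1 light (18.6 to 47.7 CPM). In Δenv-1 darkness it was 753, 25.7 and 931 CPM in replicates 1, 2 and 3, so those libraries stood far apart from one another. In such bulk samples, fewer cells of a type and less RNA per cell cannot be told apart.

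By their selection, the 77 genes were all higher in the light libraries of Δblr-2. Their summed level was 2401, 2464 and 2423 CPM in the dark replicates of Δblr-2 and 13070, 9294 and 10540 CPM in the light replicates. The light libraries of Δblr-2 thus lay several times above its dark ones. The WT had 2044, 2034 and 2093 CPM without light and 2206, 2258 and 2261 CPM after the pulse. For Δblr-1 the sum was 2166, 2196 and 2178 CPM before and 2395, 2344 and 2498 CPM after the pulse. For Δenv-1 it was 2006, 2221 and 1712 CPM before and 2303, 2237 and 2329 CPM after it. In Δenv-1 dark replicates 1 and 3 the most abundant transcript alone held 9.40% and 19.5% of the counts, against at most 2.30% in any other library. This lowers the CPM of all other transcripts in those libraries. Only the 3 Δblr-2 light libraries stood apart, and the other 21 lay within a narrow band.

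**Figure D1:**
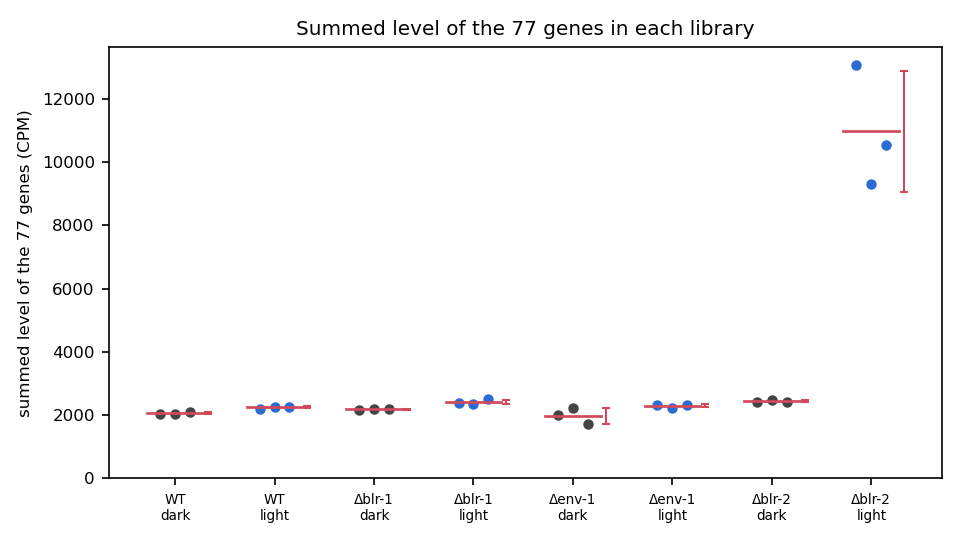
Summed level of the 77 genes in CPM (vertical axis, linear) in each of the 24 libraries, by strain and treatment, with dark replicates in grey, light replicates in blue, the mean as a red line and its SD as a bar. The Δblr-2 light libraries lie between 9294 and 13070 CPM, and all others between 1712 and 2498 CPM.

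For 76 of the 77 genes, every Δblr-2 light library was above all 21 other libraries, against 10.8% of all transcripts with a count. The rule sets the distance from Δblr-2 darkness and limits the spread of the WT, but not the level of the other strains. The count thus follows in part from the rule and is a description. The exception was gene 295477, whose Δblr-1 light replicate 1 reached into the Δblr-2 light range. Against the highest of the 18 libraries of the other strains, the lowest Δblr-2 light library was at least 2-fold higher for 61 genes and at least 5-fold higher for 16. The ratio of Δblr-2 light to dark means, with 0.5 added, ran from 3.03 to 36.6 with a median of 4.09. It was at least 4 for 43 genes, at least 8 for 12 and at least 16 for 3. In the fit across all genes, the log2 fold change in Δblr-2 ran from 1.65 to 5.36 with a median of 2.14. These values are estimates of the contrast that chose the genes. A gene is called below at an adjusted p of at most 0.05 with a log2 fold change of at least 1 in either direction, and a difference between light responses at that adjusted p alone. Of the 9605 genes tested, 577 were called higher in Δblr-2 light (6.01%) and 131 lower, and the 77 genes are among the 577. Nothing is read from that, since the rule used this contrast.

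**Figure D2:**
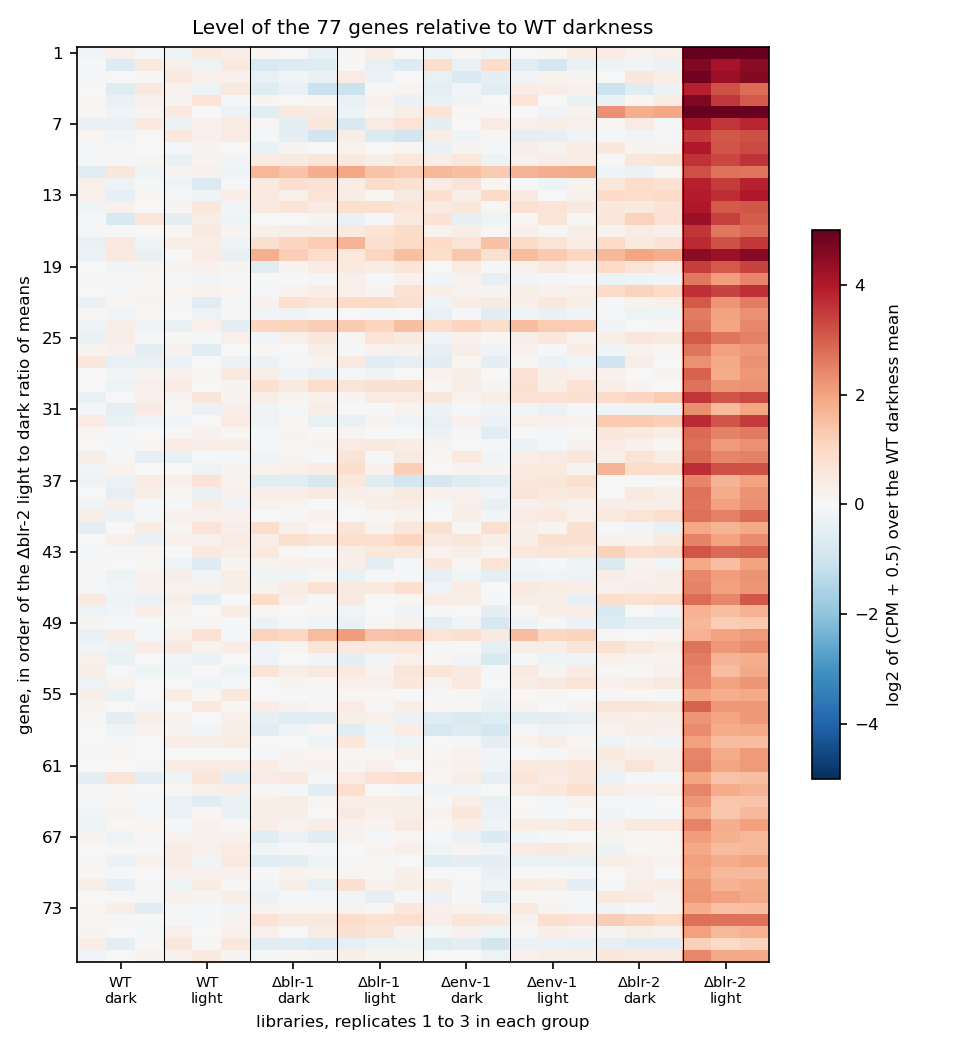
Level of each of the 77 genes (rows, ordered by the Δblr-2 light to dark ratio of means) in each library (columns), as log2 of CPM + 0.5 over its WT darkness mean, from blue (lower) through white (equal) to red (higher), the colour scale being capped at 5 in either direction. The Δblr-2 light columns are red in all rows, and few rows depart from white elsewhere.

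The genes with the largest ratios of the lowest Δblr-2 light to the highest dark value had low levels outside Δblr-2 light. Gene 91076 stood at 7.51, 6.46 and 6.79 CPM in Δblr-2 darkness and at 386, 200.0 and 226 CPM in Δblr-2 light. Its other 18 libraries ranged from 4.22 to 8.03 CPM, and its lowest light value was 25 times its highest dark value after 0.5 was added. Light replicate 1 was well above the others, and even the lowest light replicate was far from every other library. Gene 318307, which the study describes as an ankyrin repeat-containing protein (ankyrin repeats serve in binding between proteins), was at 2.92, 2.95 and 2.65 CPM in Δblr-2 darkness and 94.1, 67.1 and 87.4 CPM in light. It stayed between 1.59 and 6.68 CPM in the other strains, where its highest values were those of Δenv-1 dark replicates 1 and 3.

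Gene 84076 was at 2.92, 4.34 and 3.72 CPM in Δblr-2 darkness and 94.8, 66.1 and 81.9 CPM in Δblr-2 light, and at 1.58 to 4.21 CPM in the other strains. The pattern was the same as for gene 318307, with no overlap between light and darkness in Δblr-2 and replicate 2 the lowest of the light libraries. Genes 301284 and 290131 had few reads outside Δblr-2 light. Gene 301284 went from 0.417, 0.369 and 0.418 to 10.1, 7.71 and 8.24 CPM, with 0 to 0.861 CPM in the other strains. Gene 290131 went from 0.417, 0.646 and 0.325 to 14.8, 9.62 and 11.5 CPM, with 0 to 0.87 CPM elsewhere. For both, the ratio to darkness rests on a dark level below 1 CPM.

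Gene 220414 differed from these in its dark level. It stood at 10.01, 7.2 and 7.77 CPM in Δblr-2 darkness and 133, 97.4 and 121 CPM in Δblr-2 light, but at 0.979 to 2.96 CPM in the 18 libraries of the other strains. The Δblr-2 dark libraries were thus already above every library of the other strains before the pulse. Among the 77 genes, 31 had all Δblr-2 dark libraries above all WT dark libraries (40.3%, against 15.2% of all transcripts), and 2 had them all below. Since the rule asks for a low Δblr-2 dark value and a narrow spread in the WT, this count is a description. For 16 genes (20.8%, against 8.57% of all transcripts) the Δblr-2 dark libraries were above the dark libraries of all 3 other strains. Gene 299856, one of the 10 with the highest level, is an example, at 34.5, 45.7 and 53.3 CPM in WT darkness, 87.6, 94.2 and 108 in Δblr-2 darkness and 529.7, 393 and 445 in Δblr-2 light. Over the 77 genes the log2 ratio of the Δblr-2 dark mean to the WT dark mean had a median of 0.26 and ran from -0.61 to 2.02.

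**Figure D3:**
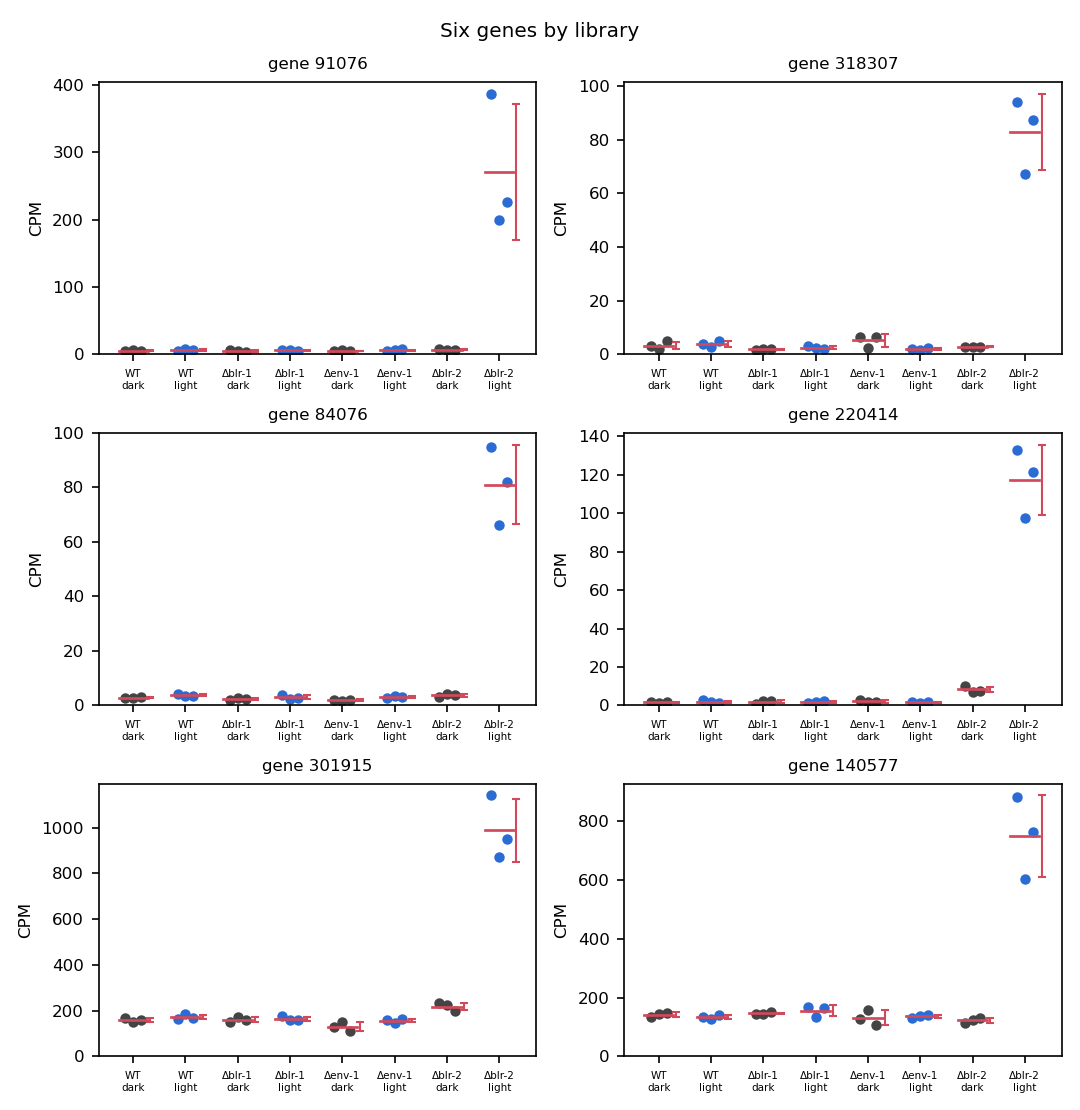
CPM (vertical axes, linear from 0) of 6 genes in each library by strain and treatment, with dark replicates in grey, light replicates in blue, the mean as a red line and its SD as a bar. The 4 genes with the largest ratios of the lowest light to the highest dark value (91076, 318307, 84076 and 220414) lie near 0 outside Δblr-2 light, whereas the 2 most abundant (301915 and 140577) start from a level above 100 CPM in every library.

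The most abundant genes had smaller ratios and were well expressed in darkness in all strains. Gene 301915 was the highest, at 232, 223 and 199 CPM in Δblr-2 darkness and 1141, 873 and 949 CPM in Δblr-2 light. In the other strains it was between 109 and 184 CPM. Gene 140577 was at 115, 123 and 130.5 CPM in Δblr-2 darkness and 881, 604 and 765 CPM in light, with 107 to 169 CPM in the other strains. For gene 140577 the Δblr-2 dark libraries lay within the range of the other strains, whereas for gene 301915 they lay above it. Gene 287170 was at 156, 155 and 153 CPM in Δblr-2 darkness and 792, 515 and 596 CPM in light. Gene 156465 was at 92.6, 84.6 and 85.6 CPM in darkness and 612, 407 and 490.3 CPM in light.

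The remaining members of this upper group had means in Δblr-2 light of 459 ± 25 CPM (SD, n = 3) for gene 300854, 435 ± 106 CPM (SD, n = 3) for gene 309419, 319 ± 22.6 CPM (SD, n = 3) for gene 286198, 293 ± 62.9 CPM (SD, n = 3) for gene 299263 and 281 ± 90.8 CPM (SD, n = 3) for gene 291411. Their Δblr-2 dark means were 139.6, 129, 86.2, 83.7 and 76.4 CPM, in the same order. Light and dark libraries of Δblr-2 did not overlap for any of them, as the rule requires. Of the 77 genes, 24 had a WT dark mean under 5 CPM and 13 one over 50 CPM. The ratio of Δblr-2 light to dark was larger among genes of low WT level, with a Spearman rho of -0.50 between the ratio and the WT dark mean over the 77 genes. These points come from the same libraries, and the rule limits both measures.

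Around the threshold of 2.5 the ratios followed each other closely. Gene 295383 had a ratio of 2.53 between its lowest Δblr-2 light and highest dark value, gene 85208 one of 2.51 and gene 309419 one of 2.501. Just outside were gene 226070 with 2.49, gene 87650 with 2.46 and gene 290393 with 2.46. A fold of 2 in place of 2.5 would have kept 131 genes and a fold of 3 would have kept 45.

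The size of the response differed between the light replicates of Δblr-2, in the same order for most genes. Replicate 1 was the highest of the 3 for 70 of the 77 genes and replicate 2 the lowest for 68. Replicate 3 was the highest for the other 7. Replicate 2 was also the deepest library of the group. The ratio of replicate 1 to replicate 2 had a median of 1.40 and ran from 0.82 to 2.30. Among the 577 genes called higher in Δblr-2 light, replicate 1 was the highest for 459 and replicate 2 the lowest for 379. The same order was thus common in the wider set, though for smaller shares of it. The order over all genes tested was not counted. The coefficient of variation over the light replicates had a median of 18.6%, against 9.79% over the Δblr-2 dark replicates. Leaving out light replicate 1, 2 or 3, the rule keeps 78, 97 or 80 genes.

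In the WT, as the rule requires, the log2 ratio of light to dark means lay between -0.39 and 0.40. In Δblr-1, the strain without the partner of BLR-2, the question is whether any of the 77 genes responded to light when the BLR complex was disrupted through its other subunit. None was called, by edgeR's quasi-likelihood test with Benjamini-Hochberg adjustment over 9605 genes, and 0.198% of all genes tested were. DESeq2 and edgeR's likelihood ratio test also called 0 of the 77, and 25 and 30 of all genes. Without adjustment 10 genes (13%) were at a p under 0.05, all with higher values in light, against 6.19% of all genes tested. The log2 fold changes in Δblr-1 ran from -0.68 to 1.26 with a median of 0.15 (all genes tested, -0.000777), and 60 of the 77 were above 0, against 49.8% of all genes tested. In the WT, whose values the rule limits, 56 of the 77 were above 0. For 10 genes (13%) all Δblr-1 light libraries were above all dark libraries, against 6.31% of all transcripts. The shallowest library of the series, with 1519260 counts, was Δblr-1 light replicate 1.

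Gene 292969 passed the adjusted p alone in Δblr-1 (1.20% of all genes did). It stood at 32.9, 30.7 and 30.2 CPM in Δblr-1 darkness and 55.3, 52.4 and 36.6 CPM after the pulse. All 3 light libraries were above the dark ones, with replicate 3 close to them. The log2 fold change was 0.63 ± 0.15 (SE; adjusted p = 0.043 by edgeR's quasi-likelihood test with Benjamini-Hochberg adjustment), short of the fold change minimum. In Δblr-2 the same gene went from 55, 53.1 and 54.3 to 206, 176 and 204 CPM. Its level was singled out here after its values were seen.

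In Δenv-1, in which only the env-1 frame was replaced, 1 of the 77 genes was called (1.3%), against 1.28% of all genes tested, so the members' share was at the background. It was gene 260232, described by the study as an actin polymerization protein, one of the proteins that build the actin cytoskeleton. It stood at 0.71, 0.92 and 1.04 CPM in Δenv-1 darkness and 2.61, 2.77 and 3.29 CPM in Δenv-1 light, with no overlap. The log2 fold change was 1.72 ± 0.36 (SE; adjusted p = 0.00445 by edgeR's quasi-likelihood test with Benjamini-Hochberg adjustment). Without Δenv-1 dark replicate 1 the value was 1.67 and without dark replicate 2 it was 1.83. Each of these fits leaves only the other replicate in that group, so no call is read from them. In the WT it was at 1.39, 1.25 and 2.34 CPM in darkness and 2.1, 2.93 and 1.97 CPM in light, which overlap. In Δblr-2 it went from 1.67, 1.66 and 1.77 to 11.1, 6.47 and 8.24 CPM, the largest levels it reached in any strain. The study also lists it among the genes induced in Δenv-1 and Δcry-DASH, lists made on libraries of this series and so no independent evidence.

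Gene 318307, the ankyrin repeat-containing protein, had lower values in light in Δenv-1, where the study lists it as repressed. It was at 6.51, 2.56 and 6.68 CPM in darkness and 2.09, 1.59 and 2.57 CPM in light, and its dark replicates 1 and 3 were the high ones. The log2 fold change was -1.15 ± 0.37 (SE; adjusted p = 0.0859 by edgeR's quasi-likelihood test with Benjamini-Hochberg adjustment), which misses the call. With the replicate number as a block it was called, at -1.18 and an adjusted p of 0.018, as it was by DESeq2 (-1.20, adjusted p = 0.0305), by edgeR's likelihood ratio test (-1.20, adjusted p = 0.0308) and with dark replicate 3 included (-1.62, adjusted p = 0.00615). Without dark replicate 2 it was -1.86, but only dark replicate 1 is then left in that group, so no call is read from it. The same dark replicates 1 and 3 carried the high conidiation gene levels given above, and the part of those levels in this value was not tested. Both the conidiation genes and this gene are on the study's Δenv-1 lists. Under each of the fits named above that called gene 318307, 2 of the 77 genes were called in Δenv-1 light in place of 1. The share of all genes called in those fits is not given here, so nothing is read from that count.

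Over the 77 genes the log2 fold change in Δenv-1 ran from -1.15 to 1.72 with a median of 0.08 (all genes tested, 0.00357), and 50 genes were above 0, against 50.9% of all genes tested. By CPM, 25 genes (32.5%) had all 3 light libraries above the 3 dark ones, against 20.0% of all transcripts. All 3 were below for 2 genes (2.6%), against 1.85%. The CPM of dark replicates 1 and 3 are lowered by their most abundant transcript, as given above, so these counts are a description. The log2 fold changes of Δenv-1 above 1 other than that of gene 260232 belonged to genes of very low counts and were not called. In Δblr-2, by comparison, the lowest of the 77 was 1.65.

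**Figure D4:**
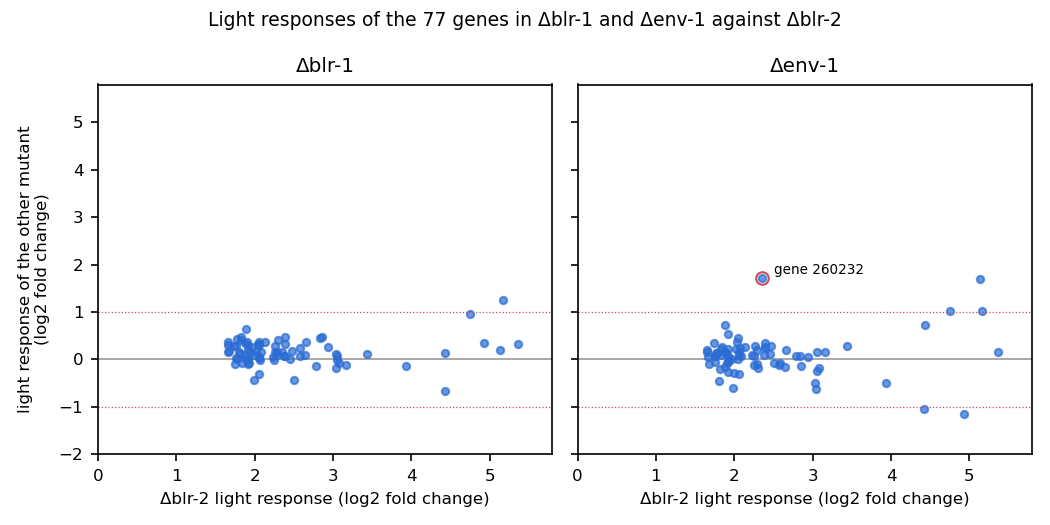
Light response of each of the 77 genes in Δblr-1 (left) and Δenv-1 (right), as log2 fold change (vertical axes), against its response in Δblr-2 (horizontal axes), with dotted lines at the fold change minimum of 1 in either direction and the called gene circled. Values in Δblr-1 lie between -0.68 and 1.26 and in Δenv-1 between -1.15 and 1.72, whereas those in Δblr-2, which the rule selected, lie between 1.65 and 5.36.

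The interaction term gave the test of a difference between the responses of Δblr-1 and Δenv-1 to the pulse. By edgeR's quasi-likelihood test with Benjamini-Hochberg adjustment, 0 of the 77 genes were called, against 1.46% of all genes tested. DESeq2 and the likelihood ratio test also gave 0, and 7 genes were at an unadjusted p under 0.05, against 10.7% of all genes tested. With the replicate number as a block, 1 was called, gene 300661 (difference of 0.83 on the log2 scale, adjusted p = 0.0458). This gene, named after its values were seen, was at 25.8, 32.7 and 31.2 CPM in Δblr-1 darkness and 23.7, 35.6 and 31.6 CPM in Δblr-1 light, and at 24, 28.9 and 19.9 CPM and 18.1, 15.4 and 21 CPM in Δenv-1. Its light and dark libraries overlapped in Δblr-1, and in Δenv-1 they did so only through dark replicate 3, which the fit leaves out. In Δenv-1 light it passed the adjusted p but not the fold change minimum (-0.64 ± 0.18, SE; adjusted p = 0.0414 by edgeR). With gene 260232, which passed both, it was 1 of 2 of the 77 genes past the adjusted p in either direction, against 4.83% of all genes tested. Without Δenv-1 dark replicate 2, the difference for gene 318307 was 2.21, with only dark replicate 1 left in that group.

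In darkness, some of the 77 genes already differed from the WT in the other mutants. In Δblr-1, 5 genes were called against the WT, all higher (6.49%, against 0.541% of all genes tested called higher), and in Δenv-1 3 were, also higher (3.9%, against 0.396%). The 3 called in Δenv-1 were among the 5 called in Δblr-1. Both comparisons share the WT dark libraries, so this overlap is no result of its own. All tests here are edgeR's quasi-likelihood test with Benjamini-Hochberg adjustment. The WT criterion of the rule limits how widely the WT values spread, and sets no level. All genes tested were not limited in this way, so the shares are not on equal terms and are given as a description.

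Genes 53983 and 297969 differed most clearly. Gene 53983 was at 2.78, 6.78 and 3.74 CPM in WT darkness, 15.3, 12.6 and 17 CPM in the Δblr-1 dark libraries and 14.9, 13.3 and 11.9 CPM in those of Δenv-1. No dark library of these mutants overlapped the WT, and the log2 differences from the WT were 1.71 ± 0.26 (SE; adjusted p = 0.000462 by edgeR) in Δblr-1 and 1.72 ± 0.27 (SE; adjusted p = 0.00182 by edgeR) in Δenv-1. Gene 297969 was at 5.74, 8.39 and 5.84 CPM in WT darkness, 14.7, 14.9 and 16.3 CPM without BLR-1 and 12.8, 14.6 and 12.8 CPM without ENVOY. Its log2 differences were 1.18 ± 0.22 (SE; adjusted p = 0.00201 by edgeR) and 1.10 ± 0.23 (SE; adjusted p = 0.00855 by edgeR). In light the values in Δblr-1 and Δenv-1 were 18.4, 12.8 and 11.5 CPM and 15.6, 16.8 and 17.3 CPM for gene 53983. For these 2 genes alone among the 77, all Δblr-1 and Δenv-1 libraries were above all WT and Δblr-2 dark libraries (2.6%), a pattern found in 7 of 11544 transcripts with a count (0.0606%). The rule limits the WT and Δblr-2 dark values, so this count is a description. In Δblr-2, whose values the rule used, the dark levels overlapped the WT range, with 3.75, 3.51 and 4.65 CPM for gene 53983 and 5.84, 6.83 and 6.93 CPM for gene 297969, and light levels of 45, 31.9 and 30.7 CPM and 44.9, 27.5 and 37.1 CPM exceeded those of all strains.

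Gene 45260 was also called in both mutants. It was at 0.522, 1.25 and 0.467 CPM in WT darkness, 3.72, 2.42 and 1.83 CPM without BLR-1 and 1.77, 2.69 and 1.64 CPM without ENVOY, with log2 differences of 1.74 ± 0.40 (SE; adjusted p = 0.00904 by edgeR) and 1.62 ± 0.42 (SE; adjusted p = 0.0293 by edgeR). The mutant libraries did not overlap the WT, and all levels were low. Its Δblr-2 dark libraries, at 3.34, 4.43 and 3.86 CPM, were above the WT as well, and its Δblr-2 light libraries were at 27.9, 23.8 and 28.9 CPM. Genes 295477 and 81501 were called in Δblr-1 only, which does not show that the strains differ. Gene 295477 was at 4.35, 7.32 and 5.14 CPM in WT darkness and 13.1, 12.1 and 17.6 in Δblr-1 darkness (log2 difference of 1.31 ± 0.25, SE; adjusted p = 0.00246 by edgeR). Gene 81501 was at 1.22, 2.5 and 1.4 CPM and 3.33, 4.12 and 4.77 CPM (1.23 ± 0.32, SE; adjusted p = 0.0206 by edgeR). Gene 295477 was at 25.7, 15.7 and 16.3 CPM in Δblr-1 light and 19.7, 24 and 26.3 CPM in Δblr-2 light, and these groups overlap.

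Several of these dark calls depended on single libraries. Without WT dark replicate 1, the counts fell to 3 genes in Δblr-1 and 1 in Δenv-1. The count in Δenv-1 was 5 without WT dark replicate 2. Gene 53983 passed in both mutants under all alternatives run, and genes 297969 and 295477 did so in Δblr-1. Gene 81501 lost its call in Δblr-1 without WT dark replicate 1 or 3 or Δblr-1 dark replicate 2 or 3 (edgeR's adjusted p from 0.0506 to 0.128), and gene 45260 did without WT dark replicate 1 (0.0663). In Δenv-1, gene 45260 lost its call without WT dark replicate 1 or 3 (edgeR's adjusted p of 0.155 and 0.117). Gene 297969 lost it there without WT dark replicate 1 (0.055). Fits without Δenv-1 dark replicate 1 or 2 leave only the other in that group, so only their log2 differences are given. These were 1.77 and 1.38 for gene 45260 and 1.10 and 1.11 for gene 297969, in that order.

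Some of the 77 genes are neighbours. The Ids of 75 could be matched to the RefSeq gene table of strain P1, assembly ASM2064779v1, a different strain, which was used only for gene order. There, 8 of the 77 genes form 4 pairs with no gene between them, namely 91076 with 45896, 53983 with 297969, 291411 with 291412, and 215831 with 47799. The first pair holds the gene with the largest ratio, and gene 45896 was at 10.8, 8.21 and 8.23 CPM in Δblr-2 darkness and 126, 69.8 and 76.6 CPM in light. Both genes of this pair were lower in light replicates 2 and 3 than in replicate 1. The second pair is the one raised in Δblr-1 and Δenv-1 darkness against the WT, whose spread the rule limits. Genes 291411 and 291412 were at 386, 228 and 229 CPM and 149, 133 and 121 CPM in Δblr-2 light, from dark means of 76.4 and 42 CPM. Genes 215831 and 47799 were at 78, 51.6 and 56.4 CPM and 75.1, 45.3 and 58.3 CPM in Δblr-2 light and 15, 13 and 12.1 and 12.9, 12.4 and 12.4 CPM in darkness. How the pairs are oriented, and whether reads of neighbours were assigned to each other, was not examined.

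To check the strain labelled Δblr-2, the genes known to answer to the BLR complex were read beside the 77. None of the 8 light-regulated genes, of the 94 transcripts that the study lists as induced through BLR-1 or of the 20 listed as induced in Δblr-1 was among the 77. For genes induced in WT light the rule itself fixes this, since it asks for steady WT values, so it says nothing of the strain. Those lists were drawn up on WT and Δblr-1 libraries of this series. env-1 (Id. 150699) was at 0.834, 1.38 and 1.3 CPM in Δblr-2 darkness and 0.438, 1.08 and 0.711 CPM in Δblr-2 light, against 1.74, 1.78 and 2.1 and 112, 106 and 109 CPM in the WT. In Δblr-2 its light and dark libraries overlapped, and the WT light libraries were far above them. In Δenv-1 its transcript still had 28.9, 33.5 and 29.7 CPM in darkness. The study states that such reads fall in the untranslated end of the transcript, which the replacement left in place. The clock gene frq (Id. 131340), whose product is the FREQUENCY protein, and the photolyase gene phr-1 (Id. 302457), whose product repairs UV damage in DNA, had log2 light responses of -0.14 ± 0.09 (SE) and 0.14 ± 0.08 (SE) in Δblr-2, and were called higher in WT light (2.25 and 1.33).

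The light marker blu-1 (Id. 300570), the orthologue of grg-1 of Neurospora crassa, behaved differently. It stood at 6.26, 3.05 and 4.05 CPM in Δblr-2 darkness and 144, 77.2 and 66.7 CPM in Δblr-2 light. It was at 7.9, 4.07 and 5.44 CPM in Δblr-1 light and 557, 765 and 559 CPM in WT light. The Δblr-2 light libraries thus lay above all Δblr-1 libraries and below all WT light libraries. Its response in Δblr-2 was larger than in Δblr-1 by 4.04 ± 0.58 on the log2 scale (SE; adjusted p = 4.48e-05) and smaller than in the WT (difference of -3.11 ± 0.52, SE; adjusted p = 0.000179), both by edgeR's quasi-likelihood test of the interaction with Benjamini-Hochberg adjustment. Of the 8 light-regulated genes, blu-1 alone was called in Δblr-2 light, whereas all 8 were called in the WT. The photolyase family gene cry-1 (Id. 86846) missed the fold change minimum by little, at 12.9, 15.8 and 13.8 CPM in Δblr-2 darkness and 29.2, 28.1 and 25.6 CPM in light, which do not overlap (0.99 ± 0.10, SE; adjusted p = 1.61e-07 by edgeR). It was called without Δblr-2 dark replicate 2 (1.07) or light replicate 3 (1.03). Its difference from the response in Δblr-1 was 0.45 ± 0.15 (SE; adjusted p = 0.0505 by edgeR), which misses the threshold and passes it under 11 of 29 alternatives. The kinase gene tmk-3 (Id. 301235), whose product links light and stress responses, was at 192, 209.7 and 208 CPM in Δblr-2 darkness and 391, 305 and 313 CPM in light, and its response exceeded that in Δblr-1 by 0.82 ± 0.11 (SE; adjusted p = 1.19e-05 by edgeR). Of the 93 tested genes listed as induced through BLR-1, 31 were called higher in Δblr-2 light, against 6.01% of all genes tested. In Δenv-1 light 69 were, and in WT light 85. Of the 20 listed as induced in Δblr-1, 12 were called higher in Δblr-2 light (against 6.01% of all genes tested), 12 in Δblr-1 light and 3 in WT light. The median log2 light response of the 93 genes in Δblr-2 was 0.33, that of the 20 was 1.61 and that of all genes tested was -0.02. For the 6 conidiation genes the median was 0.13. Of 35 genes listed as repressed through BLR-1, 6 were called lower in Δblr-2 light, against 1.36% of all genes tested. In WT light 29 were.

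**Figure D5:**
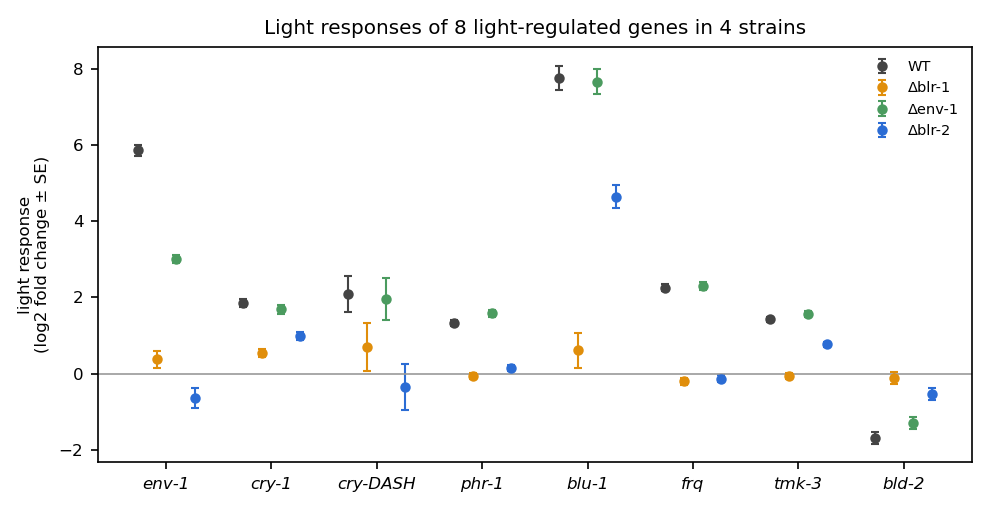
Log2 fold change of light against darkness, with its SE as a bar, of 8 light-regulated genes in WT (grey), Δblr-1 (orange), Δenv-1 (green) and Δblr-2 (blue). In Δblr-2, blu-1 lies at 4.65, between Δblr-1 (0.61) and WT (7.76), whereas env-1, frq, phr-1 and cry-DASH lie near or below 0. The cry-DASH transcript had at most 0.831 CPM in the Δblr-2 libraries.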

How the data were processed

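Estimated counts per transcript were deposited by the authors, who assigned the reads with Kallisto to the predicted transcripts, without normalization or filter. Tool versions are not given in the sources used here. In the column names L was read as light and O as darkness. By name, 24 columns matched samples, and 12 did not and were not used. Counts were rounded (8.35% were not whole). With edgeR 4.0.16 (R 4.3.3), 9605 genes that passed filterByExpr at a minimum count of 10 in 23 libraries were fitted by the quasi-likelihood method after TMM scaling, with a mean per strain and treatment and Benjamini-Hochberg adjustment over all of them. The fit was tested on simulated data. CPM in the text use library totals. Alternatives were RLE scaling, no filter, DESeq2 1.42.0, the likelihood ratio test, replicate blocks, Δenv-1 dark replicate 3 included and each replicate left out.

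The 77 genes and the lists were chosen with earlier results of these data known, and the interactions of Δblr-2 with WT and Δblr-1 were added after the other values were seen. Genes named are the 10 highest in Δblr-2 light, the 6 with the largest ratios, those called in Δblr-1 or Δenv-1, the 3 on each side of the threshold, those the study describes, and light-regulated and conidiation genes. Genes 292969, 300661, 85781 and the neighbours were added after their values were seen. To see whether replicate numbers pair dark and light libraries, deviations from group means were correlated over 9605 genes. For equal numbers, r was 0.21, 0.525 and 0.356 for the WT. It was 0.119, 0.197 and 0.115 for Δblr-1, and for Δenv-1 it was 0.164, 0.103 and 0.114. All of these exceed 0.1, so equal numbers in these strains share some deviation. For unequal numbers r was negative in Δblr-1 and Δenv-1. In the WT, dark replicate 1 with light replicate 3 gave 0.207 and dark replicate 3 with light replicate 1 gave 0.17. These WT values also exceed 0.1, so the number alone does not mark pairs there. The main fits do not use this pairing, and blocks by replicate number were run only as an alternative. With the block, gene 318307 was called in Δenv-1 light and gene 300661 in the difference between Δblr-1 and Δenv-1. For Δblr-2 it was 0.000713, 0.0875 and 0.0365. Counting was not stated to use strand, so overlapping, antisense and near-identical genes cannot be told apart. Promoter sequences were not used here.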

Additional observations from a re-analysis of the deposited data

Results flagged for a closer look

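Light responses that differed between strains were found for light-regulated genes outside the 77, by edgeR's quasi-likelihood test of the interaction with Benjamini-Hochberg adjustment. Relative to the WT, the log2 light response in Δblr-2 was lower by -6.49 in env-1, -0.86 in cry-1, -2.43 in cry-DASH, -1.19 in phr-1, -3.11 in blu-1, -2.39 in frq and -0.66 in tmk-3, and it was 1.14 higher in bld-2, a gene repressed by light in the WT. Relative to Δblr-1 it was 4.04 higher in blu-1 and 0.82 higher in tmk-3. The cry-DASH value rests on few reads, at 0 to 0.831 CPM in the Δblr-2 libraries and 0.234 to 1.04 CPM in WT darkness. In WT light cry-DASH was at 1.78 to 4.05 CPM, and the SE of its difference from the WT was 0.79. Among the 77, gene 85781 had all Δblr-1 light libraries below the dark ones and all Δenv-1 light libraries above the dark ones. This is by CPM on library totals, which are lowered in Δenv-1 dark replicates 1 and 3. In the fit its log2 light responses were -0.11 ± 0.15 (SE) in Δblr-1 and 0.23 ± 0.15 (SE) in Δenv-1, neither called. The interaction was -0.33 on the log2 scale (adjusted p = 0.672 by edgeR), so this difference did not pass the test.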

How the results depend on the processing

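The selection kept 131 genes at a fold of 2, 45 at a fold of 3, 80 on TMM-scaled CPM and 70 to 97 when single WT or Δblr-2 replicates were left out. With the replicate number as a block, 2 genes were called in Δenv-1 light and 1 differed between Δblr-1 and Δenv-1, against 1 and 0 without the block. The block changed no other count of the 77 by over 1.5 times. Over all genes it called 40 in Δblr-1 light in place of 19, with 0 of the 77 in either fit. DESeq2, the likelihood ratio test and the inclusion of Δenv-1 dark replicate 3 also gave 2 in Δenv-1 light. Fits without 1 replicate that kept Δenv-1 dark replicates 1 and 2 gave 0 to 0 in Δblr-1 light and 1 to 1 in Δenv-1 light. They gave 0 for the difference, 3 to 5 in Δblr-1 darkness and 1 to 5 in Δenv-1 darkness. Without Δenv-1 dark replicate 1 or 2, only the other is left in that group, and no count is read. Most of these counts stand without the share of all genes called in the same fit. They show how far the calls depend on the fit, and no result on the 77 is read from them. The cause of these shifts was not tested. Over the same fits the log2 light response of cry-DASH in Δblr-2 ran from -0.84 to 0.10, above 0 only without Δblr-2 dark replicate 2, and the difference between Δblr-2 and Δblr-1 for frq ran from -0.059 to 0.14, below 0 only without Δblr-2 light replicate 1. Neither was called. The cry-DASH difference from the WT missed the threshold under DESeq2, with Δenv-1 dark replicate 3 and in 6 of the fits without a replicate. Δblr-1 light replicate 1 was the shallowest library, and genes with WT means under 5 CPM are measured with few counts there.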
